A study of Mus musculus with 12 samples.

Results

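The ERK pathway feedback genes described here are 8 mouse genes whose products restrain the extracellular signal-regulated kinases (ERK) or the receptors upstream of them: the dual-specificity phosphatases Dusp1, Dusp4, Dusp5 and Dusp6, the Sprouty genes Spry1, Spry2 and Spry4, and Spred1. They were chosen by name, and every probe set that the platform annotation pairs with 1 of them alone was taken, which gave 19 probe sets for these 8 genes among 34945 probe sets for 18193 genes on the array. Of the 19, 13 were brighter than the array's median on 2 or more of the 12 arrays and were tested. The other 6 were the 4 probe sets of Spry4 and 2 of the 8 of Spred1.

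RNA of mouse embryonic fibroblasts was measured on 12 Affymetrix arrays, 2 for each of 6 groups. The groups were AMN107-IFNa and AMN107-IFNg (the inhibitor and then 6 h of interferon alpha or gamma), AMN107 (the inhibitor alone), IFNa and IFNg (6 h of interferon without the inhibitor) and DMSO (the solvent alone). AMN107 is nilotinib, a drug that inhibits the ABL kinases and also the platelet-derived growth factor receptors. All cells were grown in medium with fetal bovine serum. The labels give no strain, genotype or embryonic age, no dose or duration for AMN107, and no statement that the cells given interferon without AMN107 received DMSO. Each pair of arrays is labelled as biological replicates, with nothing further on separate cultures, so the p-values measure the spread between these arrays.

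In this pathway a growth factor receptor activates RAS, and RAS starts a kinase relay through RAF and MEK that ends in ERK. Active ERK turns on genes of its own inhibitors, so that their RNA is often read as a trace of recent ERK activity. The phosphatases remove phosphate from the kinases themselves, whereas Sprouty and Spred proteins act higher up, between the receptor and RAF. In fibroblasts, serum and growth factors are the classic triggers of these genes.

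IFNa replicate 2 stood apart from the other arrays. Its GAPDH control, which compares probes at the 5' and 3' ends of the transcript, gave a ratio of 0.0252, against 1.12 to 1.16 on the 6 arrays with AMN107 and 1.07 to 1.098 on the other 5 without it. The difference between the 2 IFNa arrays had an SD of 0.44 over probe sets, against 0.13 to 0.16 in the other 5 groups, on the log2(signal + 8.66) scale used throughout. This array was kept in the tests, whose spread all groups share, and results that rest on it are also given without it. Added poly-A control RNA (LysX) read 36.1 to 41.4 on the AMN107 arrays, against 59.6 and 66.2 in DMSO, 81.1 and 45.4 with IFNa alone, and 36.1 and 40.55 with IFNg alone. It was thus lower on every AMN107 array than on the DMSO and IFNa arrays, and overlapped those of IFNg. Of 10 fibroblast markers, 7 lay above the array's median on all 12 arrays, with vimentin at 2786 to 4816, while Thy1 and Postn lay below it on all of them. The summed fibroblast markers were 6545 to 6788 with AMN107 and 9267 to 11340 without it. Vimentin and S100a4 (1872 to 5235 over the 12 arrays) made up most of these sums. Of 8 fibroblast markers tested, 3 were lower and 0 higher with AMN107 alone (adjusted p under 0.05), against 13% and 19.9% of all genes. For epithelium the sums were 109.8 to 135.0 with AMN107 and 142.2 to 186.7 without it, and for fat and cartilage, with 6 of 7 markers on the array, 163.8 to 185.9 with AMN107 and 111.5 to 150.0 without it. Sums overlapped for macrophages and leukocytes (239 to 303 with AMN107 and 282 to 305 without), endothelium (80.4 to 92.3 with and 79.9 to 101 without), muscle (153 to 176 with and 139 to 183 without) and neurons (187 to 212 with and 161 to 218 without). No marker was at 0, and the defining markers Ptprc of leukocytes (3.94 to 5.21), Cdh1 of epithelium (2.55 to 3.43) and Adipoq of fat (3.57 to 5.13) lay below the array medians of 20.6 to 22.8. Other markers of these lists lay above the median on all 12 arrays, namely Csf1r (41.0 to 60.5) and Cd14 (114.2 to 172.3) of macrophages, Epcam (50.7 to 89.0) of epithelium, and Fabp4 (22.1 to 69.0) and Sox9 (45.4 to 88.1) of fat and cartilage. So did 1 of 6 endothelial, 2 of 6 muscle and 3 of 6 neuron markers. The part of these differences in the results below was not tested.

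Start-site sequences from RefSeq, build GRCm38.p6, were found for 6 of the 8 genes (not for Dusp4 and Spry4). Each runs from 250 bases before to 50 bases after the start. The 3 that belong to genes higher on every AMN107 array, leaving IFNa replicate 2 aside, and that of Dusp1, which was not, are shown so that their motifs can be compared. They lie at chr19:53528895-53529194 on the plus strand (Dusp5), chr10:99262981-99263280 on the plus strand (Dusp6), chr14:105896770-105897069 on the minus strand (Spry2) and chr17:26508423-26508722 on the minus strand (Dusp1). Capitals mark matches to a motif searched, and a sequence without capitals holds none.
Dusp5: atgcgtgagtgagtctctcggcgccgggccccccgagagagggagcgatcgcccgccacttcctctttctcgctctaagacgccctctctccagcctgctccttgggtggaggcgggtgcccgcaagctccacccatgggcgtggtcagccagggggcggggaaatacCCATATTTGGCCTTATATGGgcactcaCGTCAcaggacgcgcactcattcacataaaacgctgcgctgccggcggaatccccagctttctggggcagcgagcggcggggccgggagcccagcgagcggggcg
Dusp6: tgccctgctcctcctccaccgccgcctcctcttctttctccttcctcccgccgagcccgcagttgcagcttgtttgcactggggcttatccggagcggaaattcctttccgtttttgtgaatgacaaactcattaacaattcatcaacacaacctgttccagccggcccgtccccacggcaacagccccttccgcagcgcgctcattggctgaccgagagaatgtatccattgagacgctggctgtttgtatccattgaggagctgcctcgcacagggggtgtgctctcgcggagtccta
Spry2: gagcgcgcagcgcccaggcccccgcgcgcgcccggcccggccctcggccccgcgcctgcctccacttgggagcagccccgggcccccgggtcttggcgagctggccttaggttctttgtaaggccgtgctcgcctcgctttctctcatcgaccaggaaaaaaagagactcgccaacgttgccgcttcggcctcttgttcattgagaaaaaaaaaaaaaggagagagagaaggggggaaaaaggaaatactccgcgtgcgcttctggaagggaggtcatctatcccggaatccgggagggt
Dusp1: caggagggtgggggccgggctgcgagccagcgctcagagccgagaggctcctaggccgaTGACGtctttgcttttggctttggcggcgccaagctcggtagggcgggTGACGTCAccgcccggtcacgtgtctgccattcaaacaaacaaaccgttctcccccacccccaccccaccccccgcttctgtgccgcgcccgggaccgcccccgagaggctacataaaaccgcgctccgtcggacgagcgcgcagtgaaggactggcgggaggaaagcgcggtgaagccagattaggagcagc
Dusp5 carried a pair of CArG boxes, the element bound by serum response factor, at -82 and -72 from the start, directly beside each other, and the core of a cAMP response element (TGACG, on the minus strand) at -55. Dusp1 carried a full cAMP response element (TGACGTCA) at -143 and its core at -191, -143 and -140, of which the last 2 lie within the full one. Among 32851 promoter windows of this length, 1.63% held a CArG box, 1.79% a full cAMP response element and 20.8% its core on either strand. No match was found in the 6 windows, on either strand, to the AP-1 motif TGANTCA (7.81% of all windows), the ETS motif CCGGAAGT (3.89%), the GAS motif TTCNNNGAA (8.30%) or the interferon-stimulated response element, GAAA, any 2 bases and GAAA (3.44%). The windows of Dusp6, Spry2, Spry1 and Spred1 held no match to any of the 7 motifs. The Dusp1 and Dusp5 windows thus had motifs of different kinds beyond the core element that both held.

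In cells without interferon, AMN107 raised the RNA of 3 of the 4 phosphatases and, at its brighter probe set only, of Spry2. Among these, Dusp6 lost its call when any single array outside IFNa was left out and after quantile normalization. Dusp4 and Dusp5 were also higher with AMN107 in both interferon states, each at 1.5-fold or more. These 2 genes, and Spry2 at its brighter probe set, were higher on all 6 AMN107 arrays than on all 6 arrays without it. Spry1 was lower with AMN107 alone, and Dusp1 passed no test of AMN107. Over the 13 probe sets, 5 rose and 1 fell with AMN107 alone. The median difference was 0.29 on the log2 scale, against 0.03 over all 24363 probe sets tested. The 5 include a dim Spred1 probe set (1428777_at) that lay below the array's median in both groups compared. After quantile normalization 4 rose and 2 fell, and after centring on the median 5 rose and 1 fell. The background was high, since 33.1% of all probe sets were called with AMN107 alone, 20.7% as higher and 12.4% as lower (5047 and 3009 probe sets, or 3857 and 4518 after quantile normalization and 5868 and 2070 after centring on the median). In whole cultures, fewer cells of a type and less RNA per cell cannot be told apart.

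**Figure D1:**
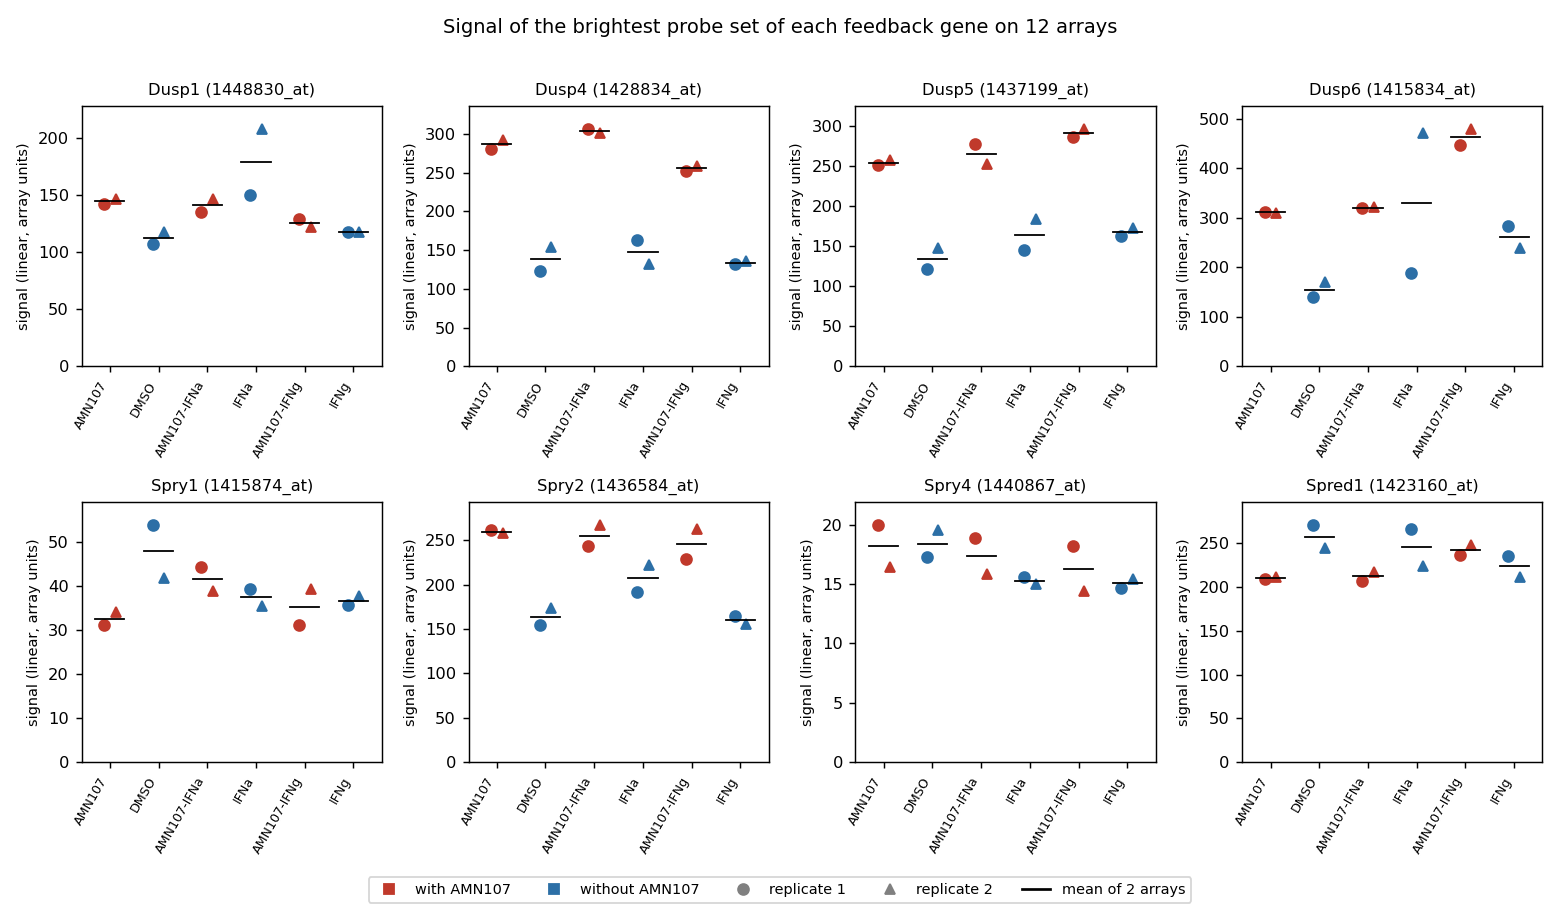
Linear signal of the brightest probe set of each of the 8 genes (vertical axis, array units, from 0) on the 12 arrays by group (horizontal axis), with AMN107 in red and without it in blue, circles for replicate 1, triangles for replicate 2 and a line at the mean of 2 arrays. For Dusp4 the AMN107 arrays lie at 252 to 306, all above the 123 to 163 of the arrays without it, and in the Dusp6 panel IFNa replicate 2 sits at 470.2 against 188 for replicate 1.

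Dusp4, a nuclear phosphatase of ERK and other MAP kinases, gave the most even response. Its signals (probe set 1428834_at) were 281 and 292 on the AMN107 arrays, against 123 and 153 on the DMSO arrays. With IFNa they were 306 and 301 on the AMN107-IFNa arrays, against 163 and 132 on the IFNa arrays. With IFNg they were 252 and 259 on the AMN107-IFNg arrays, against 131 and 136 on the IFNg arrays. High and low arrays were thus split by AMN107 alone, with no overlap in any interferon state. The rise was 2.02-fold without interferon (log2 difference 1.01, SE 0.12, adjusted p 0.00033), 2.01-fold with IFNa (1.01, adjusted p 0.000538) and 1.86-fold with IFNg (0.89, adjusted p 0.00129), in limma's test adjusted by Benjamini-Hochberg over all 24363 probe sets. The order of the group means was AMN107-IFNa, AMN107, AMN107-IFNg, IFNa, DMSO and IFNg, and the ranges of the last 3 overlapped. Leaving out any single array left each of the 3 calls in place, with adjusted p at most 0.0176.

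Dusp5, a nuclear phosphatase selective for ERK, followed the same split. Its signals (1437199_at) were 251 and 257 with AMN107, against 122 and 148 in DMSO. They were 278 and 252 on the AMN107-IFNa arrays and 146 and 184 on the IFNa arrays. They were 286 and 296 on the AMN107-IFNg arrays and 162 and 172 on the IFNg arrays. No AMN107 array fell within the range of the arrays without it. The rise was 1.84-fold without interferon (log2 difference 0.88, SE 0.13, adjusted p 0.000895), 1.59-fold with IFNa (0.67, adjusted p 0.00475) and 1.70-fold with IFNg (0.77, adjusted p 0.00341). The rise with IFNa lost its call without AMN107-IFNa replicate 1 (0.60, adjusted p 0.0508) and kept it without IFNa replicate 2 (0.83, adjusted p 5.85e-05). By mean the groups ran AMN107-IFNg, AMN107-IFNa, AMN107, IFNg, IFNa and DMSO. The AMN107-IFNa and AMN107 ranges overlapped, as did each neighbouring pair of the last 3.

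Dusp6, a cytoplasmic phosphatase selective for ERK, was about as strongly raised by AMN107 alone. Its 2 IFNa arrays lay far apart, which widened the SE that all its tests share. Its signals (1415834_at) were 312 and 309.9 with AMN107, against 139 and 171 in DMSO. They were 319 and 321 on the AMN107-IFNa arrays, against 188 and 470.2 on the IFNa arrays. They were 447 and 478 on the AMN107-IFNg arrays, against 283 and 239 on the IFNg arrays. IFNa replicate 2 lay 2.50 times above replicate 1 and above 5 of the 6 AMN107 arrays, while the other 5 arrays without AMN107 lay below all 6. By mean the groups ran AMN107-IFNg, IFNa, AMN107-IFNa, AMN107, IFNg and DMSO, and only the wide IFNa range overlapped its neighbours. Dusp6 rose 1.96-fold with AMN107 alone (log2 difference 0.97, SE 0.31, adjusted p 0.0356). The difference with IFNg was 0.81 (adjusted p 0.108) and with IFNa 0.10 (adjusted p 0.849). With both IFNa arrays left out the SE was 0.0957, and the adjusted p was 1.87e-06 for AMN107 alone and 2.26e-05 for AMN107 with IFNg. Without IFNa replicate 2 the difference with IFNa was 0.74 (adjusted p 0.000291), and without IFNa replicate 1 it was -0.54 (adjusted p 0.00159). With any 1 of the 10 arrays outside IFNa left out, the call for AMN107 alone was lost (adjusted p 0.0523 to 0.184), as it was after quantile normalization (0.78, adjusted p 0.0542).

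Dusp1 is an immediate early phosphatase that acts on p38, JNK and ERK. Its signals (1448830_at) were 142 and 147 with AMN107, against 107 and 118 in DMSO. They were 135.5 and 146 on the AMN107-IFNa arrays, against 150.5 and 208 on the IFNa arrays. They were 129 and 122 on the AMN107-IFNg arrays, against 118 and 118 on the IFNg arrays. The AMN107 arrays lay above the DMSO arrays, below the IFNa arrays and just above the IFNg arrays. Ordered by mean, IFNa came highest, followed by AMN107, AMN107-IFNa, AMN107-IFNg, IFNg and DMSO, with overlap between AMN107 and AMN107-IFNa and between IFNg and DMSO. The differences were 0.34 without interferon (SE 0.13, adjusted p 0.074), -0.31 with IFNa (adjusted p 0.117) and 0.09 with IFNg (adjusted p 0.702). The first had an adjusted p of 0.00254, at the same size, without both IFNa arrays. The difference with IFNa was -0.09 (adjusted p 0.529) without IFNa replicate 2 and -0.53 (adjusted p 0.00037) without IFNa replicate 1.

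Spry2, the Sprouty gene with the clearest response, was higher with AMN107 without interferon and with IFNg. Its brighter probe set (1436584_at) gave 261 and 258 with AMN107, against 154 and 174 in DMSO. It gave 244 and 267 on the AMN107-IFNa arrays, against 192 and 223 on the IFNa arrays. It gave 228 and 263 on the AMN107-IFNg arrays, against 164 and 155 on the IFNg arrays. All 6 AMN107 arrays lay above the 6 without it, with the smallest gap to IFNa replicate 2. The rise was 1.56-fold without interferon (log2 difference 0.64, SE 0.11, adjusted p 0.00266) and 1.51-fold with IFNg (0.59, adjusted p 0.00689). The call with IFNg was lost without AMN107-IFNg replicate 2 (0.49, adjusted p 0.0695) or IFNg replicate 2 (0.55, adjusted p 0.057). The difference with IFNa was 0.29 (adjusted p 0.0872), or 0.40 (adjusted p 0.0103) without IFNa replicate 2. By mean the order was AMN107, AMN107-IFNa, AMN107-IFNg, IFNa, DMSO and IFNg. Neighbouring ranges overlapped among the first 3 and between DMSO and IFNg, and the IFNa range overlapped neither. The dimmer probe set of Spry2 (1421656_at) did not share the pattern: it read 29.6 to 38.3 with AMN107 and 24.0 to 36.7 without, and passed no test.

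Spry1 went the other way with AMN107 alone. Its signals (1415874_at) were 31.3 and 34.1 with AMN107, against 53.9 and 42.0 in DMSO. They were 44.4 and 38.9 on the AMN107-IFNa arrays and 39.5 and 35.5 on the IFNa arrays. They were 31.3 and 39.5 on the AMN107-IFNg arrays and 35.7 and 37.8 on the IFNg arrays. The groups were apart without interferon and overlapped in both interferon states. Spry1 fell by 0.45 on the log2 scale with AMN107 alone (SE 0.13, adjusted p 0.0226), and the differences with IFNa and IFNg were 0.12 (adjusted p 0.518) and -0.05 (adjusted p 0.829). The fall lost its call without DMSO replicate 1 (-0.29, adjusted p 0.176), AMN107 replicate 1 (-0.40, adjusted p 0.117) or AMN107 replicate 2 (-0.50, adjusted p 0.072). Ordered by mean, DMSO came highest and AMN107 lowest, and each group's range overlapped that of its neighbour. Spry4, another Sprouty gene, was not measured above the array's median on any array: its brightest probe set (1440867_at) read 14.4 to 20.0 with AMN107 and 14.7 to 19.6 without, and its other 3 read 4.49 to 15.8 with AMN107 and 3.95 to 16.1 without.

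Spred1 encodes a membrane-bound inhibitor of RAS signalling that works with neurofibromin, and its 8 probe sets did not move as one. The brightest (1423160_at) gave 209 and 212 with AMN107, against 270.4 and 244 in DMSO. It gave 207 and 217 on the AMN107-IFNa arrays and 266 and 224 on the IFNa arrays. It gave 237 and 248 on the AMN107-IFNg arrays and 235 and 212 on the IFNg arrays. AMN107 arrays were thus lower than those without it in 2 interferon states and higher with IFNg, and none of these differences was called (-0.28 without interferon, -0.20 with IFNa and 0.11 with IFNg on the log2 scale, adjusted p 0.0715, 0.217 and 0.519). The difference for AMN107 alone had an adjusted p of 0.00837 without both IFNa arrays, and after quantile normalization it was -0.46 (adjusted p 0.0158). DMSO had the highest mean and AMN107 the lowest, and all neighbours in the order overlapped except AMN107-IFNg and IFNg.

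A dim Spred1 probe set (1428777_at) rose with AMN107 alone, the direction opposite to the brightest. It gave 19.5 and 18.6 with AMN107, against 13.7 and 14.2 in DMSO, a log2 difference of 0.29 (SE 0.08, adjusted p 0.0202). This probe set lay above the array's median on 3 of 12 arrays, IFNa replicate 2 and both AMN107-IFNg arrays, and entered the tests only through them. On all other arrays, those of AMN107 alone and DMSO among them, it lay below the median. The call was lost without either array of AMN107 or of DMSO (differences 0.27 to 0.32). Another (1423162_s_at) gave 34.9 and 38.5 with AMN107, against 21.8 and 20.4 in DMSO, a difference of 0.61 with an adjusted p of 0.0802, or of 5.05e-05 without both IFNa arrays. Probe set 1460116_s_at was lower with AMN107 in the presence of IFNa (-0.78, SE 0.25, adjusted p 0.0473), with 38.3 and 55.4 on the AMN107-IFNa arrays and 60.3 and 119.7 on the IFNa arrays. That call was lost without IFNa replicate 2 (-0.33, adjusted p 0.157) and with each of the 10 other arrays outside IFNa left out. The remaining tested sets, 1423161_s_at and 1452911_at, passed no test in any of the 3 states. IFNa replicate 2 was 1.63 to 2.54 times replicate 1 on 4 of the 6 tested Spred1 probe sets. The 2 untested sets read 10.8 to 14.9 (1443652_x_at) and 2.37 to 2.83 (1445228_at) with AMN107, against 14.2 to 19.4 and 2.11 to 2.71 without it.

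**Figure D2:**
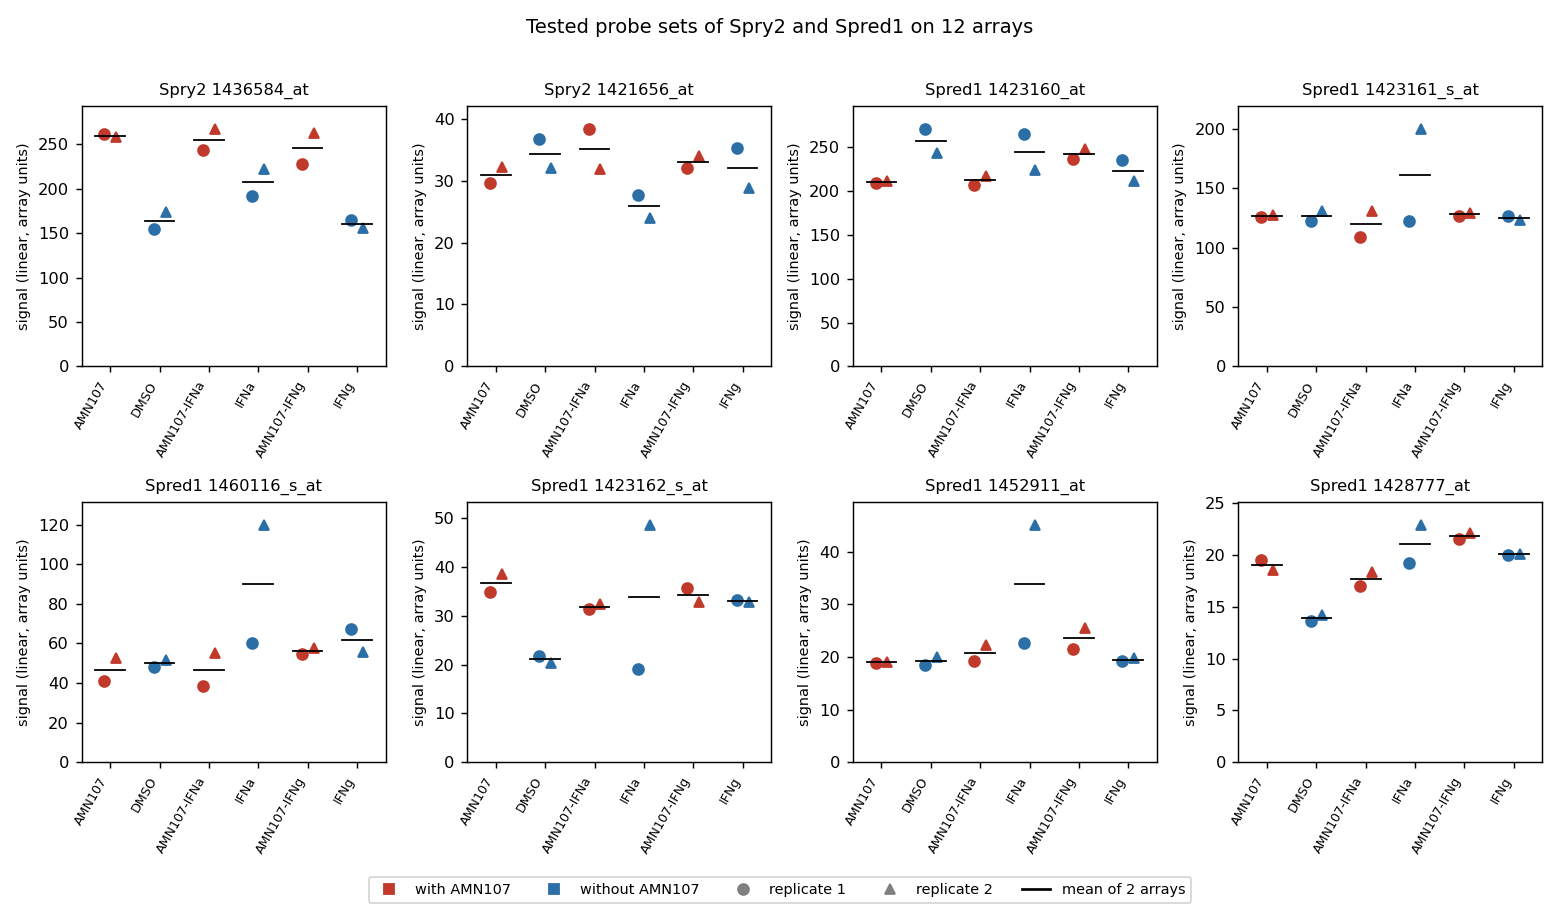
Linear signal (vertical axes, array units, from 0) of the 2 probe sets of Spry2 and the 6 tested probe sets of Spred1 on 12 arrays by group (horizontal axes), with AMN107 in red, without it in blue, and a line at the mean of 2 arrays. Spry2 1436584_at separates the 2 colours and Spry2 1421656_at does not, and 4 Spred1 panels show IFNa replicate 2 at 1.63 to 2.54 times replicate 1.

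With IFNa, 2 of the 13 probe sets were higher and 1 lower on AMN107 arrays (background 11.2% higher and 12.9% lower), and with IFNg 3 were higher and none lower (background 10.9% and 4.41%). At an unadjusted p under 0.05, limma counted 9 without interferon, 7 with IFNa and 4 with IFNg, where 45.1%, 36.9% and 29.9% of all probe sets passed. The medians of the 13 differences were 0.02 with IFNa and 0.09 with IFNg, against -7e-04 and 0.01 over all probe sets. Counting the brightest probe set of each gene, 4 of 7 genes were higher and 1 lower without interferon, 2 and 0 with IFNa, and 3 and 0 with IFNg. Among the brightest probe sets of 12192 genes, 19.9%, 10.6% and 12% were higher in these states and 13%, 13.7% and 4.79% lower. Dusp4, Dusp5 and Spry2 made up the calls with IFNg, a state in which the LysX control overlapped between the groups, at 40.0 and 41.4 on the AMN107-IFNg arrays and 36.1 and 40.55 on the IFNg arrays. The GAPDH ratio was higher on the AMN107 arrays in that state too (1.14 and 1.16, against 1.09 and 1.098), and its part was not tested.

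**Figure D3:**
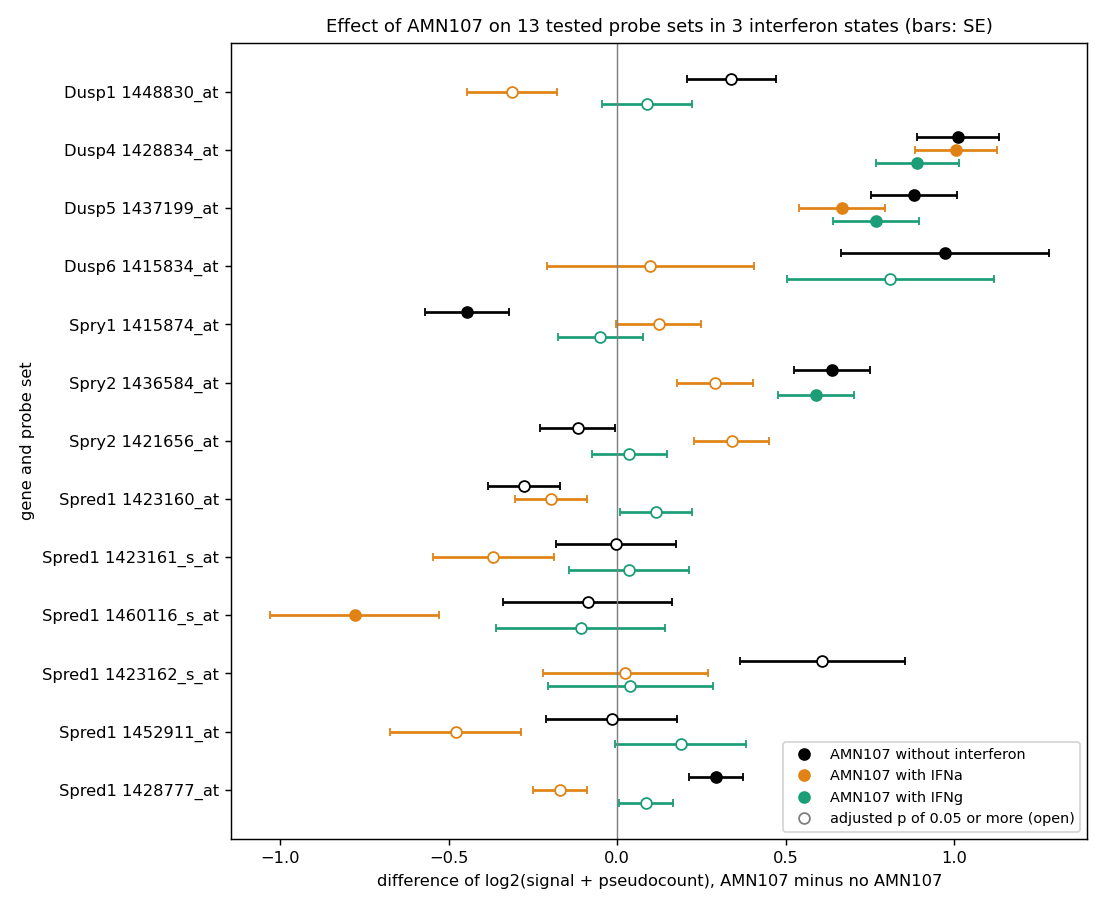
Difference of log2(signal + 8.66), AMN107 minus no AMN107 (horizontal axis, bars show the SE), for the 13 tested probe sets (vertical axis) without interferon (black), with IFNa (orange) and with IFNg (green), 2 arrays a group, with filled points for adjusted p under 0.05. Dusp4 and Dusp5 are filled in all 3 states, at 0.67 to 1.01, and the 6 Spred1 probe sets fall on both sides of 0.

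Interferon itself was followed by fewer calls among these genes. With IFNa and no AMN107, 2 of 13 probe sets rose and none fell, against a background of 8.91% higher and 3.08% lower. Dusp1 rose 1.53-fold (log2 difference 0.62, SE 0.13, adjusted p 0.0308), with IFNa replicate 2 the higher array. Without that array the difference was 0.39 (adjusted p 0.0317). The call was lost when any of the 2 DMSO, 2 IFNg or 6 AMN107 arrays was left out (adjusted p 0.0506 to 0.194) and after quantile normalization (0.40, adjusted p 0.0569). The dim Spred1 probe set 1428777_at, tested only through IFNa replicate 2 and the AMN107-IFNg arrays, rose by 0.39 (adjusted p 0.0277). It had 19.2 and 22.9 on the IFNa arrays, against 13.7 and 14.2 in DMSO. That call was lost without IFNa replicate 2 (0.30), and without either array of DMSO, AMN107 or AMN107-IFNg. The difference of Dusp6 was 0.92 (adjusted p 0.0681) and depended on which IFNa array was used: 0.28 (adjusted p 0.158) without replicate 2 and 1.56 (adjusted p 1.79e-07) without replicate 1.

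With IFNg and no AMN107, 1 of 13 probe sets rose (background 6.65% higher and 2.33% lower), Spred1 1428777_at at 0.35 (adjusted p 0.0251). Its signals were 20.0 and 20.1 on the IFNg arrays, below the medians of those arrays (21.9 and 22.1), and it lay below the median in DMSO too. The call was lost without either array of IFNg or of DMSO (differences 0.33 to 0.37). Dusp6 stood above both DMSO arrays on both IFNg arrays, with a difference of 0.72 (SE 0.31, adjusted p 0.177). Without both IFNa arrays the same difference had an SE of 0.0956 and an adjusted p of 6.2e-05, and 4 of the 13 probe sets were called higher (background 17.2%): Dusp6, Dusp5 (0.30, adjusted p 0.0192), Spred1 1423162_s_at (0.49, adjusted p 0.000681) and Spred1 1428777_at (adjusted p 0.00706). At the brightest probe set of each gene, 1 of 7 genes was higher with IFNa (background 8.93%) and 0 with IFNg (5.73%). The comparisons of IFNa, IFNg and AMN107 with DMSO share the same 2 DMSO arrays.

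In cells given AMN107, neither interferon changed a probe set of these genes in limma's test: 0 of 13 were called with IFNa (background 0.119%) and 0 with IFNg (background 1.78%). At an unadjusted p under 0.05 there was 1 with IFNa, where 2.59% of all probe sets passed, and 0 with IFNg, where 7.98% passed. Dusp6 had the largest difference with IFNg, at 0.56 (adjusted p 0.771), and its AMN107-IFNg arrays both lay above its AMN107 arrays. Without both IFNa arrays this difference had an adjusted p of 0.00212, the only call among the 13 (background 3.54% higher). Spry1 gave the unadjusted call with IFNa, at 0.28 (adjusted p 1).

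**Figure D4:**
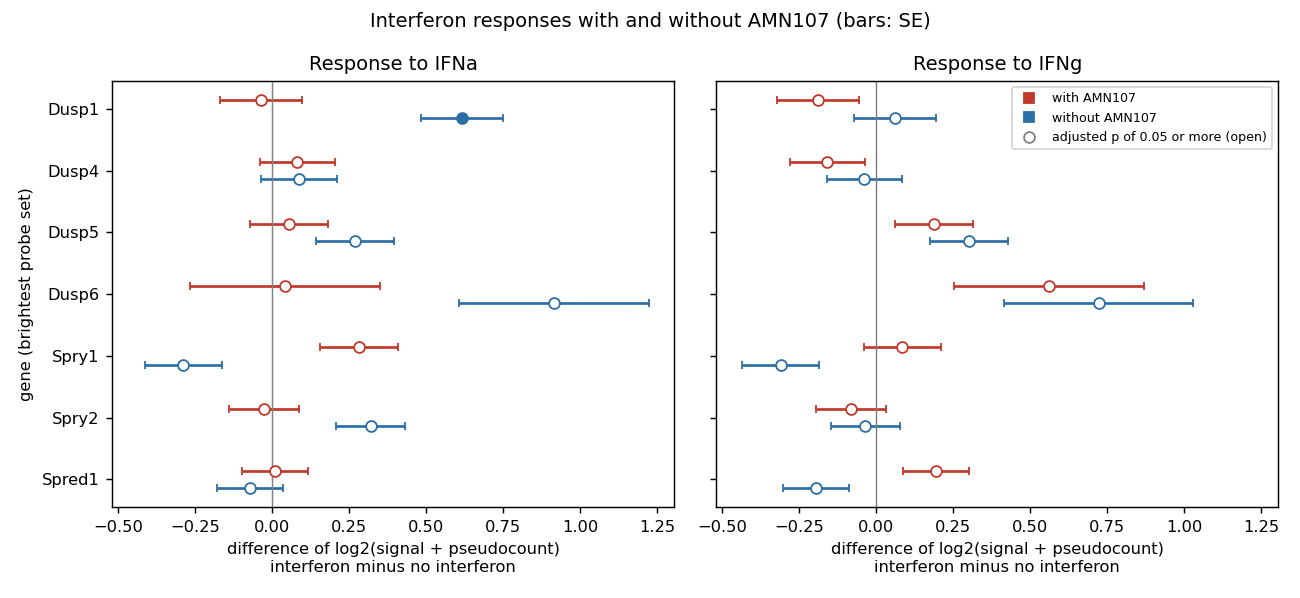
Difference of log2(signal + 8.66), interferon minus no interferon (horizontal axes, bars show the SE), for the brightest tested probe set of 7 genes (vertical axis), with IFNa in the left panel and IFNg in the right, AMN107 in red and no AMN107 in blue, 2 arrays a group and filled points for adjusted p under 0.05. Dusp1 with IFNa and no AMN107 is the 1 filled point, at 0.62, and Dusp6 with IFNg lies at 0.56 with AMN107 and 0.72 without.

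Whether AMN107 changed the interferon responses was tested by the interaction, the response with AMN107 minus that without. None of the 13 probe sets was called for IFNa (background 0.152%) or for IFNg (background 1.38%) in limma's test. At an unadjusted p under 0.05 there were 4 for IFNa, where 21.6% of all probe sets passed, and 2 for IFNg, where 13.1% passed. Among the phosphatases, the interaction with IFNa was -0.65 for Dusp1 (SE 0.19, adjusted p 0.183) and -0.01 for Dusp4 (adjusted p 0.985). It was -0.21 for Dusp5 (adjusted p 0.464) and -0.87 for Dusp6 (SE 0.44, adjusted p 0.26). With single arrays left out it ranged from -0.87 to -0.43 for Dusp1. For Dusp6 it was -0.23 (adjusted p 0.392) without IFNa replicate 2 and -1.51 (adjusted p 6.14e-06) without IFNa replicate 1. With IFNg the Dusp6 interaction was -0.16 (SE 0.44, adjusted p 0.928). Without both IFNa arrays, 2 Spred1 probe sets were called for IFNg, 1423160_at at 0.39 (adjusted p 0.0289) and 1423162_s_at at -0.57 (adjusted p 0.00612), in opposite directions. In that fit 13.1% of all probe sets were called, 2.63% higher and 10.4% lower.

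Other genes of the pathway, taken as lists and read at the brightest probe set of each gene, moved in both directions with AMN107 alone. Of 8 other dual-specificity phosphatases, 3 rose and 1 fell (median difference 0.27, against 0.02 over all genes, with 19.9% of genes higher and 13% lower). Dusp14 had 350.2 and 343 with AMN107, against 148 and 181 in DMSO (log2 difference 1.04, adjusted p 0.00298). Its difference with AMN107 was 0.95 with IFNa (adjusted p 0.0061) and -0.25 with IFNg (adjusted p 0.41). IFNg without AMN107 raised it by 1.01 (adjusted p 0.00956), and its interaction with IFNg was called (-1.30, adjusted p 0.0491). With AMN107 alone Dusp2, another inducible nuclear phosphatase, rose by 0.67 (adjusted p 0.00349), and Dusp16, which acts on JNK and p38, fell by 0.42 (adjusted p 0.00386). Of 13 tested inhibitors of receptors and RAS, 2 rose and 2 fell (median 0.17). Rasal2, a RAS GTPase-activating protein, rose by 0.90 (adjusted p 0.00153), and Spred2, the close relative of Spred1, fell by 0.37 (adjusted p 0.0268), although 4 dimmer Spred2 probe sets lay at -0.21 to 0.76 and none was called.

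Further transcriptional outputs of ERK rose in 6 of 17 genes and fell in 1 (median 0.24), where 19.9% of all genes were higher and 13% lower. Ier2, an immediate early gene, gave 682 and 676 with AMN107, against 197 and 236 in DMSO (1.62, adjusted p 6.98e-05). Egr1, an immediate early transcription factor, gave 1821 and 1836 with AMN107, against 758 and 1063 in DMSO (1.02, adjusted p 0.00208), and the ETS factor gene Etv5 rose by 0.77 (adjusted p 0.00458), with other probe sets at 0.32 (adjusted p 0.151) and 1.02 (adjusted p 0.000134). Ier3 fell by 0.36 (adjusted p 0.0347). With IFNa 3 of the 17 rose and 1 fell, and with IFNg 2 rose and 1 fell, Etv5 (0.53, adjusted p 0.0409) and Fos (0.41, adjusted p 0.0319) being the 2 that rose. Of all genes, 10.6% were higher and 13.7% lower with IFNa, and 12% and 4.79% with IFNg. Among 14 receptors and ligands that feed the pathway, 3 rose and 4 fell with AMN107 alone (median -0.22), against 19.9% and 13% of all genes. Fgfr1 rose by 0.93 (adjusted p 0.00188) and Hbegf, a ligand of the EGF receptor, by 0.84 (adjusted p 0.00289). Pdgfrb, a receptor that AMN107 inhibits, gave 28.4 and 40.2 with AMN107, against 100.7 and 90.4 in DMSO (-1.29, adjusted p 0.000644), but its second probe set differed by -0.04 (adjusted p 0.884). The related receptor gene Pdgfra differed by -0.16 (adjusted p 0.409), and Pdgfb, a ligand, fell by 0.69 (adjusted p 0.00274) with a second probe set at -0.21 (adjusted p 0.145). Of 13 cascade genes, 3 rose and 1 fell with AMN107 alone (median 0.10), against the same 19.9% and 13% of all genes. Those called included the MEK gene Map2k1 (0.60, adjusted p 0.000475) and Braf (-0.40, adjusted p 0.0197), whose other probe sets lay at -0.37 to 0.25.

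**Figure D5:**
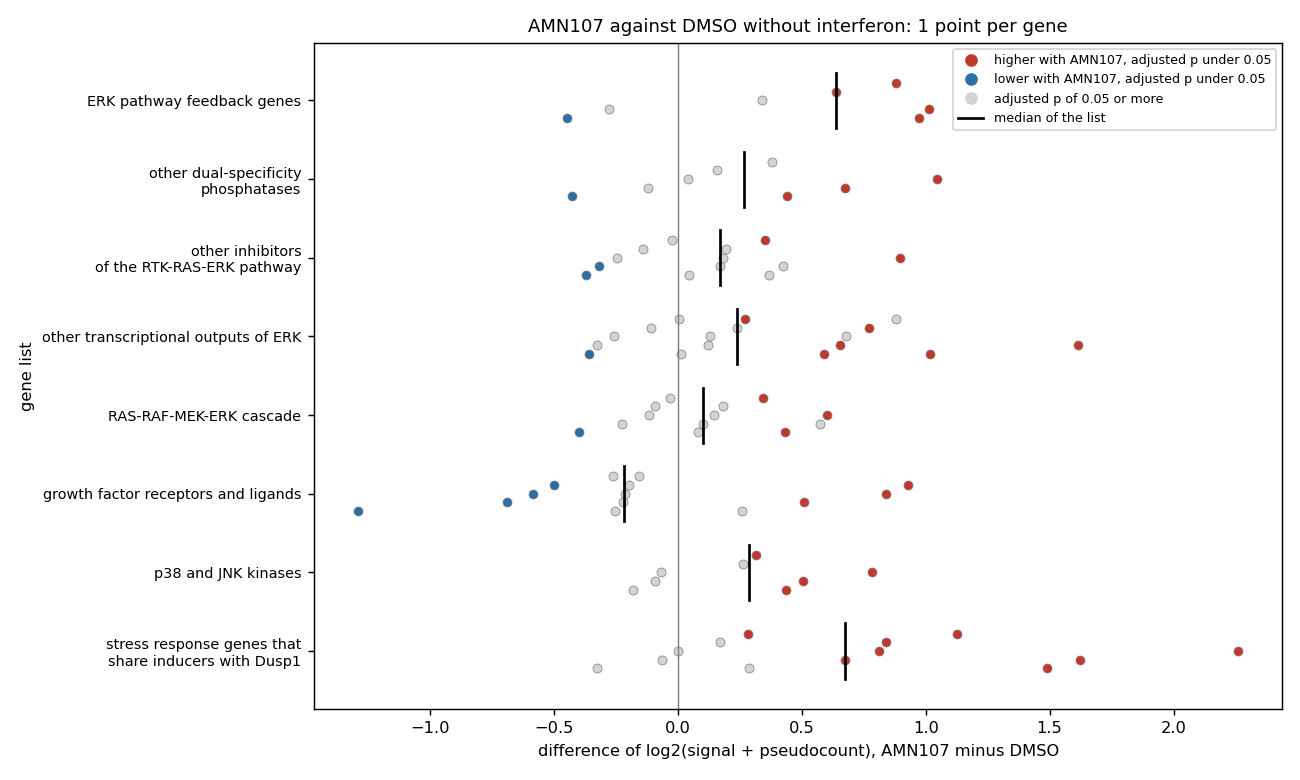
Difference of log2(signal + 8.66), AMN107 minus DMSO without interferon (horizontal axis), with 1 point per gene at its brightest probe set for the 7 tested feedback genes and 7 further lists (vertical axis), red for higher and blue for lower at adjusted p under 0.05, grey otherwise, and a line at each list's median. The feedback genes have a median of 0.64, and the receptors and ligands lie at -1.29 to 0.93.

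Over the 11 arrays without IFNa replicate 2, the feedback genes that AMN107 raised were correlated with each other. They were picked for a split by AMN107 on these same arrays, from which high values follow. The correlations are a description of arrays that share their treatment and carry no test. Over the 6 pairs of Dusp4, Dusp5, Dusp6 and Spry2, Pearson's r ran from 0.731 (Dusp4 with Dusp6) to 0.976 (Dusp4 with Spry2). Against these 4 genes Spry1 ran at -0.416 to -0.633, Spred1 at -0.455 to -0.597 and Dusp1 at 0.33 to 0.707. The 3 genes most like each member by Pearson's r, among the brightest probe sets of all tested genes, were Sco2 (0.995), Nans and Zfp566 for Dusp4. They were Smurf1, Pafah1b1 and Trib1 for Dusp5 (0.985 to 0.986) and Clic4, Cebpd and Pdk3 for Dusp6 (0.982 to 0.987). For Spry2 they were Snrnp48, Zswim8 and Ldlrad3 (0.984 to 0.992), and for Dusp1 Tiam2, Scyl3 and Epdr1 (0.954 to 0.957). The genes nearest to Spry1 were S1pr4, Gas6 and Grin2b (0.893 to 0.941), to Spred1 Hes7, Slc2a1 and Cds2 (0.902 to 0.923), and to the dim Spry4 Psors1c2, Fam71a and Abtb1 (0.873 to 0.889).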

How the data were processed

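RNA of mouse embryonic fibroblasts was hybridised to 12 Affymetrix arrays in 6 groups of 2. The deposited values are linear probe set intensity signals, and MAS5 is named, without version or settings, per the submitters' processing notes; the genome build behind the annotation is not given in the sources used here. How the arrays were scaled is likewise not given, so differences in overall brightness between arrays can remain in the values. Gene names came from the platform annotation (34945 probe sets with 1 gene, 932 with several, 9160 with none, 64 controls left out); 34741 symbols were looked up in RefSeq and 0 changed.

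Values were taken as log2(signal + 8.66), 8.66 being the arrays' mean 25th percentile. Testing needed a signal brighter than the median of 2 or more of the 12 arrays, which 24363 probe sets had. The 6 group means were fitted with limma 3.58.1 in R 4.3.3 (lmFit, eBayes with a trend), with 9 two-sided contrasts; Benjamini-Hochberg adjustment ran over all probe sets tested, and adjusted p under 0.05 was called. Folds are ratios of signal + 8.66 and understate changes of dim probe sets. Pathway lists used the brightest probe set of each gene (12192 genes). From each list and each comparison of AMN107, up to 2 rises and 2 falls with arrays that did not overlap were eligible to be named. Pdgfrb and Pdgfra were added. Etv5 without interferon, and the uncalled Mapk14, Mapk11, Mapk9 and Map2k4, lie outside that rule and were chosen after their values were seen. The genes and lists were chosen with earlier results of these data known. Replicate numbers are not said to link arrays: over 15 pairs of groups the deviations correlated at -0.14 to 0.32, above 0.1 in 3. The fit was checked on simulated data. Alternatives were other pseudocounts, filters and normalizations, 1 probe set per gene, array weights, a replicate block, and fits without the IFNa arrays or without each array. The number of arrays limits the precision.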

Additional observations from a re-analysis of the deposited data

How the results depend on the processing

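Outside the fits that leave out single arrays, 1023 checks were made on the tested probe sets, of which 990 kept the direction and the side of the threshold, 7 lost the call, 26 gained one and 0 reversed. The count of calls for IFNa without AMN107 was 2, and became 1 with a filter at the 75th percentile, 1 after quantile normalization, 5 after centring on the median (which moved the median of all probe sets to 0.12), 1 with 1 probe set per gene and 0 with array weights. For IFNg without AMN107 it was 1, and became 0 with that filter, 0 with 1 probe set per gene, 4 without both IFNa arrays and 4 with array weights. The last 2 settings gave 1 and 1 call in place of 0 for IFNg with AMN107, and 2 and 2 in place of 0 for the interaction with IFNg. Array weights left 1 of 3 calls for AMN107 with IFNa. The cause of these changes was not tested. Leaving out each array in turn, calls ranged from 3 to 9 for AMN107 without interferon, 1 to 9 for AMN107 with IFNa, 2 to 4 for AMN107 with IFNg, 0 to 10 for IFNa and 0 to 4 for IFNg without AMN107, 0 to 0 for IFNa and 0 to 1 for IFNg with AMN107, 0 to 11 for the interaction with IFNa and 0 to 2 for that with IFNg. In these fits 2 differences reversed, both for AMN107 with IFNa without IFNa replicate 1: Dusp6 (-0.54, with 0.74 without IFNa replicate 2) and Spred1 1423162_s_at (-0.50, with 0.54 without IFNa replicate 2). Without both IFNa arrays 52.3% of all probe sets were called for AMN107 without interferon, against 33.1% with them. The shares of all probe sets called in the fits without single arrays are not given here. The ranges of calls over those fits therefore cannot show whether calls among these genes changed more than among all probe sets. Over all 12 arrays, 8 of the 24 genes named as most alike were shared with the 11-array list.

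With the replicate number as a block, the calls for AMN107 were 6 without interferon, 4 with IFNa and 3 with IFNg, against 6, 3 and 3, and 2, 1, 0 and 0 for the interferon responses and 0 for both interactions, as before; the added call was the dimmer Spry2 probe set with IFNa (0.34, adjusted p 0.0406).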

Other observations

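The kinases that Dusp1 acts on besides ERK, p38 and JNK with the kinases upstream of them, included genes that rose with AMN107 and others that did not. Without interferon 4 of the 8 tested genes rose and 0 fell (median difference 0.29 on the log2 scale, against 0.02 over all genes, with 19.9% of genes higher). Mapk12, a p38 kinase, gave 401 and 394 with AMN107, against 223 and 232 in DMSO (0.78, adjusted p 0.000159 in limma's test), although its second probe set differed by -0.17. The p38 activator Map2k3 gave 1470 and 1546 with AMN107, against 1021 and 1101 in DMSO (0.50, adjusted p 0.00216). The p38 genes Mapk14 (-0.09) and Mapk11 (-0.18), the JNK gene Mapk9 (0.26) and the upstream Map2k4 (-0.07) were not called (adjusted p 0.113 to 0.725). With each interferon 2 of the 8 rose, Mapk12 and Map2k6, where 10.6% of all genes were higher with IFNa and 12% with IFNg.

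Among 13 stress response genes known to share inducers with Dusp1, 8 rose and 0 fell with AMN107 alone (median 0.68). Over all genes 19.9% were higher and 13% lower. Dusp1 itself was not called (0.34, adjusted p 0.074), although its AMN107 arrays lay above its DMSO arrays. Klf6, a zinc finger transcription factor, gave 743 and 741 with AMN107, against 120.3 and 181.5 in DMSO (2.26, adjusted p 4.24e-05), with 3 further probe sets at 0.26 to 1.79. Gadd45a, a growth arrest gene, gave 328 and 297 with AMN107, against 104 and 87.8 in DMSO (1.62, adjusted p 4.45e-05). With IFNa 7 rose and 1 fell, and with IFNg 5 rose and 0 fell, Ddit3 being at 1.11 and 1.45 in these states (adjusted p 0.0013 and 0.000432). The shares over all genes were 10.6% higher and 13.7% lower with IFNa, and 12% and 4.79% with IFNg. The summed markers of other cell types that differed with AMN107 moved beside these lists as well, and their part was not tested.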
